A study of Drosophila melanogaster with 30 samples.

Results

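The change of m6A-IP over input upon heat shock (HS) was measured in control *Drosophila* heads, from the 12 libraries of control flies among the 30 libraries of the series. These are the input and the IP libraries of 3 replicates in basal conditions and of 3 replicates after HS, so that 6 RNA samples each gave a pair of libraries. For each gene the heat change is the log2 ratio of IP to input after HS minus the log2 ratio of IP to input in basal conditions, with each IP paired with the input of its own RNA sample. The control flies were male progeny of *da*Gal4, a driver that is active in nearly all cells, crossed to the KK control line (Vienna 60100). They were raised at 25 °C and collected 1 to 2 days after eclosion. The study's stress assay, which includes this heat treatment, used adults aged to 6 days, so the collection days need not be the age of the heads. HS lasted 30 min at 38.5 °C in vials of 20 flies, with tissue taken directly afterwards, and basal flies were not heated. PolyA+ RNA from 200 pooled heads per replicate was fragmented, 10% was kept as input, and the rest was immunoprecipitated with an antibody to m6A. The other groups in the series were UAS-*dTrmt10A* heads in basal conditions and after HS, driven by the same *da*Gal4, and basal *dTrmt10A* RNAi heads. Only the 12 UAS-*dTrmt10A* libraries were set beside the control ones. By the labels every replicate was precipitated with the antibody of Synaptic Systems, whereas the study's methods give a further supplier for some replicates, and no model has an antibody term.

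In flies, m6A is written in the nucleus by a complex built around Mettl3 and Mettl14, with fl(2)d, vir, nito, Flacc and Hakai as partners, and is bound by the YTH domain proteins Ythdc1 and Ythdf. Fly m6A is concentrated in the 5'UTR, where the fly head differs from mammalian tissues. Acute heat activates the transcription factor Hsf, which drives very strong synthesis of *Hsp70*, the small heat shock proteins and *Hsp83*, while much other transcription and translation is reduced. The values used here are counts per gene, so a ratio of IP to input joins the whole transcript and does not resolve the 5'UTR from the 3'UTR. Scaling sets the typical gene near 0 in every library, so a shift of m6A on all transcripts at once cannot be seen. In whole heads, fewer cells of a type and less RNA per cell cannot be told apart.

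Total counts ranged from 21015314 to 25208108 in the 6 input libraries and from 16255688 to 23066214 in the 6 IP libraries. Each of the 12 libraries was closest in log2 CPM (log2 of counts per library size, scaled by TMM factors) to another library of its own group. HS moved the composition of the libraries. The 6 *Hsp70* copies together held 0.00717% to 0.0209% of the counts of any basal library, and 9.46% to 9.71% of the HS input and 8.17% to 8.29% of the HS IP counts. Mitochondrial transcripts held 12.7% to 14.2% of the counts in basal input, 10.1% to 11.3% in HS input and 0.307% to 0.421% in IP. Markers of neurons, photoreceptors, glia, fat body and muscle were all expressed, while 0 of 5 testis, 0 of 3 accessory gland and 0 of 5 gut enzyme genes passed the filter on low counts.

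Upon heat, IP over input rose for 133 genes and fell for 71 of the 10450 genes tested, which is 1.27% and 0.679% of them (edgeR's quasi-likelihood F-test, Benjamini-Hochberg adjusted p under 0.05). At an unadjusted p under 0.05 there were 1139 higher and 777 lower genes. The median change over all genes was 0.01 on the log2 scale. The genes that rose were mostly longer than the median gene tested, and mostly had IP over input above 0 already in basal heads. Those that fell were mostly shorter than the median gene and had basal IP over input below 0, with 7 ribosomal proteins among them. The changes were small for most genes, with a median of 0.38 among the 133 (range 0.28 to 2.68) and -0.43 among the 71 (range -1.77 to -0.30). The largest rise and the largest fall in these ranges, *Obp56f* and *CG31606*, were of genes with few counts. In all 204 genes the 3 basal values and the 3 HS values did not overlap, while over all genes tested the HS values lay above the basal ones for 1409 genes (13.5%) and below for 984 (9.42%). The split of higher and lower genes depended on scaling. With total library size in place of TMM factors 19 genes were higher and 347 lower, with the median of all genes at -0.13, and with mitochondrial transcripts left out 47 were higher and 135 lower. All 204 genes kept the sign of their change under both, and changes are read relative to the median gene. They were called on the same data with changes of at least 0.28 in size, so kept signs are no further finding. The number of calls depended on single RNA samples. It was 975 higher and 323 lower without basal replicate 2, 193 and 51 without basal replicate 1, 44 and 23 without basal replicate 3, 15 and 6 without HS replicate 1, 32 and 31 without HS replicate 2, and 1 and 0 without HS replicate 3.

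The ratios on which this change rests passed the test against 0 for most genes in both conditions. Past the threshold, IP over input in basal heads was above 0 for 3692 genes (35.3%) and below 0 for 3929 genes (37.6%) of those tested. After HS it was above 0 for 3825 (36.6%) and below 0 for 4003 (38.3%). The distribution of log2 IP/input over genes was wider after HS. Its SD over genes was 0.73, 0.89 and 0.82 in the basal RNA samples and 0.94, 0.90 and 0.97 in the HS samples. All 3 HS values lay above the 3 basal values, by a narrow margin between basal replicate 2 and HS replicate 2. The means were 0.81 ± 0.081 (SD, n = 3) and 0.94 ± 0.039 (SD, n = 3), and the exact permutation test gave a two-sided p of 0.10, the smallest that 3 against 3 allows. In UAS-*dTrmt10A* heads, whose libraries are separate, the SD was 0.69, 0.77 and 0.71 in basal and 0.89, 0.88 and 1.00 in HS samples. Basal replicate 1 of the control, with the narrowest distribution, also had the highest basal *Hsp70* share in input, 0.0209% against 0.00853% and 0.00717%, and the part of this in the result was not tested.

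**Figure D1:**
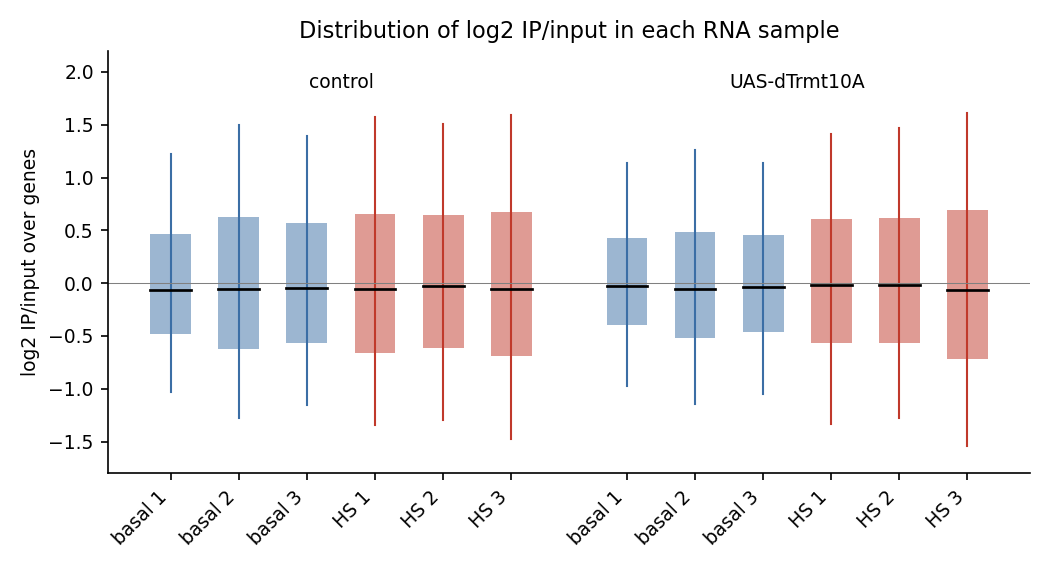
Distribution of log2 IP/input over the genes tested in each RNA sample, for control heads (10450 genes) and UAS-*dTrmt10A* heads (10588 genes). Boxes span the 25th to the 75th percentile, lines the 5th to the 95th, and the bar is the median. In control heads the 5th percentile lay between -1.28 and -1.03 in basal and between -1.47 and -1.30 in HS samples, and the 95th between 1.22 and 1.50 and between 1.51 and 1.59.

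Among the largest rises were genes of neuronal signalling and RNA binding. *Octbeta2R*, a receptor for octopamine, the fly counterpart of noradrenaline, lies on chromosome 3R from 12550625 to 12595725 (dm6, minus strand) and has a 5'UTR of 3607 nt in the annotation. Its input levels were 25.6, 24 and 22.7 CPM in basal and 42.2, 40.5 and 38.4 CPM in HS samples, and its IP levels 47.3, 58.4 and 45.6 CPM and 146, 125 and 140 CPM. Input and IP were thus both higher in every HS sample, and IP by more. The log2 IP/input was 0.88, 1.28 and 1.00 in basal and 1.79, 1.62 and 1.87 in HS samples, a rise of 0.70 (SE 0.10, adjusted p = 0.00085), or 1.62-fold. *Teh1*, an auxiliary subunit of the voltage-gated sodium channel (chromosome 3R, 9826081 to 9868120, minus strand), moved differently in its parts. Its input was 24.9, 24.2 and 25.0 CPM in basal and 16.3, 16.8 and 15.6 CPM in HS samples, while IP was 52.7, 70.8 and 63.5 CPM and 63.0, 64.3 and 62.9 CPM. Input was thus lower in every HS sample and IP stayed within its basal range, and log2 IP/input rose by 0.64 (SE 0.11, adjusted p = 0.0028).

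*qkr58E-1*, a KH domain RNA-binding protein of the Quaking-related family (chromosome 2R, 22412556 to 22415518, minus strand), had log2 IP/input of 1.35, 1.86 and 1.59 in basal and 2.17, 2.22 and 2.32 in HS samples, and rose by 0.63 (SE 0.097, adjusted p = 0.0011). *Crg-1*, a forkhead transcription factor named for its daily rhythm, went from 1.70, 2.04 and 1.94 to 2.49, 2.38 and 2.71. Other features on the opposite strand overlap 26.8% of its exon length, and whether the counts used strand is not stated in the sources used here, so its value is less certain. *CG8929* was the most abundant of the 12 largest rises. It had input levels of 149, 138 and 145 CPM in basal and 160, 184 and 187 CPM in HS samples and IP levels of 330, 384 and 370 CPM and 650, 688 and 675 CPM, and its ratio rose by 0.60 (SE 0.083, adjusted p = 0.00085). The largest changes were picked among genes whose basal and HS ratios were separate, so that separation is no further finding.

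The highest estimates belonged to genes with few counts. The long noncoding RNA *lncRNA:CR31044*, which overlaps the *mir-279* and *mir-996* loci on its own strand, had input of 1.12, 1.55 and 1.19 CPM in basal and 2.39, 1.14 and 1.53 CPM in HS samples, and IP of 1.17, 2.07 and 1.43 CPM and 4.76, 6.01 and 5.31 CPM. Its ratio rose by 1.41 (SE 0.37, adjusted p = 0.045) and passed the threshold in 5 of 16 alternatives. *CG5883* went from -0.25, -0.93 and -0.87 to 0.69, 0.24 and 0.65 at IP levels below 6 CPM, a rise of 1.24 (SE 0.28, adjusted p = 0.023). *CG33941*, which is overlapped over 43.0% of its exons by *Asator* on the other strand, rose by 0.77 (SE 0.16, adjusted p = 0.011). The other rises in the plot of single genes were *CG2556* (0.79), *lncRNA:CR46006* (0.66), *CG15673* (0.65) and *CG33229* (0.62).

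**Figure D2:**
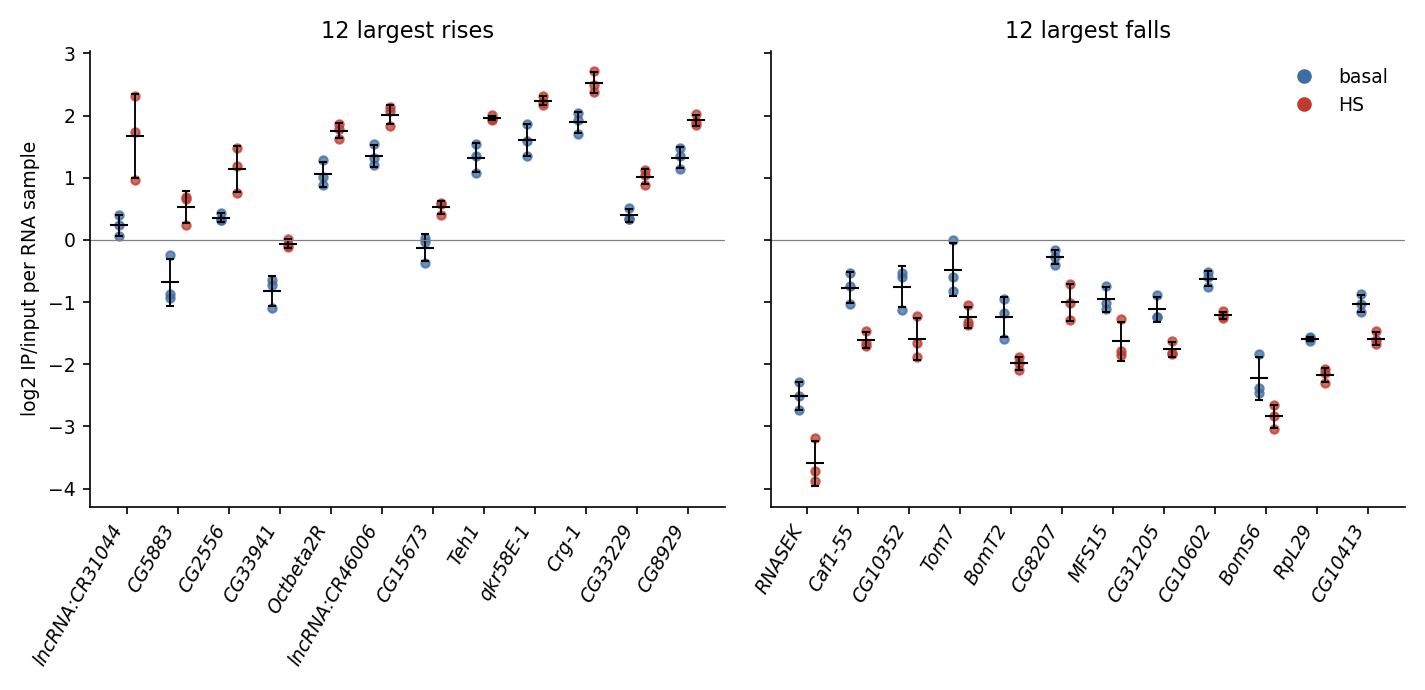
Log2 IP/input in each of the 6 RNA samples of control heads for the 12 largest rises and the 12 largest falls among called genes whose log2 CPM averaged 1 or more. Points are single RNA samples, bars are means and error bars SD (n = 3). Genes were picked among those whose basal and HS points do not overlap, and *RNASEK* had the lowest ratios of the genes shown, between -3.88 and -3.18 after HS.

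Among the 12 largest falls, all but *CG10602* (2408 nt of exon) and *CG10413* (4010 nt) were shorter than the median gene tested (2058 nt), down to 198 nt in *BomS6*. *RNASEK*, a small membrane protein first described as a ribonuclease (chromosome 2R, 4186835 to 4188127, minus strand), had input of 35.6, 29.8 and 32.6 CPM in basal and 47.9, 39.5 and 39.8 CPM in HS samples. Its IP levels were 6.20, 6.05 and 4.82 CPM in basal and 3.16, 4.26 and 2.93 CPM in HS samples. Input was higher and IP lower in every HS sample, and log2 IP/input fell by 1.10 (SE 0.18, adjusted p = 0.0019), 2.15-fold. *RpL29*, a protein of the large ribosomal subunit (chromosome 2R, 21293768 to 21294404, plus strand), had input of 109, 106 and 112 CPM in basal and 161, 168 and 146 CPM in HS samples, with IP of 36.7, 34.2 and 37.4 CPM and 36.4, 39.7 and 29.6 CPM. Its ratio was -1.57, -1.63 and -1.58 in basal and -2.14, -2.07 and -2.30 in HS samples, a fall of 0.58 (SE 0.085, adjusted p = 0.00085). Its input was higher after HS in all replicates while the IP ranges overlapped.

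*Caf1-55*, a histone-binding subunit of several chromatin complexes, fell by 0.87 (SE 0.17, adjusted p = 0.010), with lower IP in every HS sample (4.32, 3.84 and 5.47 CPM against 12, 8.76 and 10.3 CPM). *Tom7*, a small subunit of the import pore of the mitochondrial outer membrane, fell by 0.77 (SE 0.18, adjusted p = 0.027). The Bomanins *BomT2* and *BomS6*, short secreted immune peptides induced through Toll, fell by 0.76 and 0.59. *BomS6* input varied between replicates, at 87.7, 136 and 160.5 CPM in basal and 110, 204 and 157 CPM in HS samples, and its input did not pass the test of a heat change (adjusted p = 0.55). The remaining falls in the plot of single genes ranged from -0.86 in *CG10352* to -0.57 in *CG10413*, and included the transporter *MFS15* (-0.68) and *CG8207* (-0.72), *CG31205* (-0.64) and *CG10602* (-0.59).

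The called genes can be described by their basal ratio, which is part of the tested change, and by features of their transcripts, which did not enter the fit. Of the 133 genes that rose, 117 had a basal IP over input above 0, with 109 past the threshold, and 16 had one below 0. All 71 genes that fell had a basal ratio below 0, with 70 past the threshold. The basal ratio shares its libraries with the heat change, so this split is a description. The genes that rose had a median exon length of 4817 nt, with 7 exons in the longest transcript, a 5'UTR of 870 nt and a 3'UTR of 1512 nt. The genes that fell had medians of 1445 nt, 4 exons, 122 nt and 165 nt. Over all genes tested the medians were 2058 nt, 4 exons, 208 nt and 305 nt. Called genes were also more abundant. The median log2 CPM was 6.30 in genes that rose, 5.64 in genes that fell and 4.18 in all genes. The part of this level in the other differences was not tested. The median GC content of the exons was 44.9% in genes that rose, 47.2% in genes that fell and 49.0% in all genes. The pentamer AAACA, counted on the sense strand of the exons, had a density over the summed exons of 3.82 per kb in genes that rose, 1.33 in genes that fell and 2.15 in all genes, and the medians over single genes were 3.33, 0.98 and 1.73 per kb. Over the summed exons GGACT had 0.579, 1.17 and 0.864 per kb, and GAACT 1.04, 1.25 and 1.14 per kb. The medians over single genes were 0.52, 1.03 and 0.80 per kb for GGACT and 0.96, 1.03 and 1.05 per kb for GAACT. The density of AAACA over the summed exons was also taken within 4 classes by GC content. In the lowest class it was 4.54 per kb in 71 genes that rose, 1.88 in 28 that fell and 3.27 in all 2607. Median GC still differed within that class, at 40.2%, 43.8% and 43.0%. In the highest class the density was 1.43 per kb in 13 genes that rose, 0.99 in 11 that fell and 1.24 in all 2606. With the trend of each library with exon length and GC content removed, 57 genes rose and 59 fell.

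The change in IP and in input can be given side by side, since both come from the same libraries as the ratio. Of 10219 genes tested in input, 2005 rose (19.6%) and 2402 fell (23.5%) upon heat, and of 9849 tested in IP, 1580 rose (16.0%) and 1930 fell (19.6%). Among the 133 genes with a higher ratio, the median change was 0.12 in input and 0.49 in IP. Of these genes 49 rose and 19 fell in input, and 98 rose and 1 fell in IP. Among the 71 genes with a lower ratio, the medians were 0.18 in input and -0.30 in IP. Here 28 genes rose and 2 fell in input, and 0 rose and 27 fell in IP.

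Classes of all genes showed the same ordering with smaller sizes. Genes were ranked into 5 classes of equal size by their basal IP over input in UAS-*dTrmt10A* heads, which share no library with the control. The median heat change in control heads was -0.15 in the lowest class, then -0.08, 0.00 and 0.09, and 0.14 in the highest. In the lowest class 10 genes rose and 52 fell of 2068 (0.484% and 2.51%), and in the highest 58 rose and 0 fell (2.80% and 0%). Over all genes tested 1.27% rose and 0.679% fell. Length classes were also cut into 4 of equal size. By annotated 5'UTR length, the median change was -0.08 in the class up to 94 nt, with 4 genes rising and 22 falling, and 0.13 in the class from 510 nt, with 97 rising and 2 falling. In that longest class the median log2 IP/input was 0.38, 0.52 and 0.48 in basal and 0.61, 0.58 and 0.60 in HS samples. By 3'UTR length, the change was -0.07 up to 126 nt and 0.12 from 780 nt, with 5 rising and 30 falling against 91 rising and 3 falling. By exon length it was -0.07 in the shortest class (7 and 30 genes) and 0.11 in the longest (94 and 5 genes). Genes with a long 5'UTR often also have a long 3'UTR and long exons, so these classes cannot be told apart here. Of 1908 protein-coding genes with at least 8 exons, 60 rose and 9 fell with a median of 0.10, and of 823 with a single exon 1 rose and 0 fell with a median of -0.03.

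**Figure D3:**
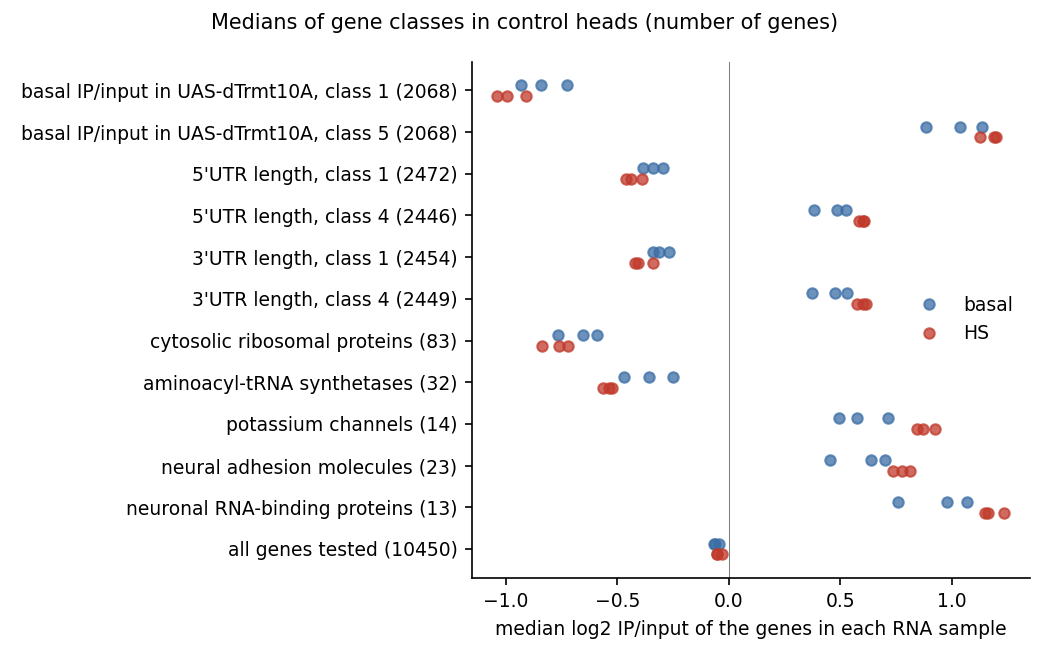
Median log2 IP/input of gene classes and lists in each RNA sample of control heads, with the number of genes tested in brackets. Blue points are the 3 basal samples and red points the 3 HS samples. The class of genes with the highest basal ratio in UAS-*dTrmt10A* heads went from 0.89, 1.14 and 1.03 to 1.19, 1.13 and 1.20, where HS replicate 2 overlapped basal replicate 2, and the median of all genes stayed between -0.06 and -0.03.

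The classical heat shock transcripts rose strongly in input and IP and did not pass the test for a change in their ratio. The 6 *Hsp70* copies are nearly identical and reads cannot be assigned to single copies with certainty, so their counts were summed. Summed input was 171, 69.98 and 59.7 CPM in basal and 99483, 102548 and 100409 CPM in HS samples, and summed IP 157, 86.9 and 71.0 CPM and 104480, 104051 and 106892 CPM. Basal replicate 1 was the highest of the basal samples in input and in IP and had the lowest ratio. Input rose by 9.98 on the log2 scale (SE 0.68) and IP by 9.95 (SE 0.40). The log2 IP/input was -0.13, 0.31 and 0.25 in basal and 0.07, 0.02 and 0.09 in HS samples, with means of 0.14 ± 0.24 and 0.06 ± 0.036 (SD, n = 3). The HS values lay inside the basal range. The heat change was -0.08 (SE 0.12, adjusted p = 0.78), and ranged from -0.20 without basal replicate 1 to 0.05 without basal replicate 2. Neither the basal (adjusted p = 0.15) nor the HS ratio (adjusted p = 0.50) passed the test against 0. Without basal replicate 1 the basal ratio was 0.26 and passed it (adjusted p = 9.55e-05). Of single copies, *Hsp70Ab* had the largest change, -0.70 (adjusted p = 0.053), from basal input levels of 3.69, 1.24 and 1.06 CPM.

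Of the 10 small heat shock proteins tested of 12 listed, 0 passed the threshold, and of the 12 genes of the *Hsp83*, *Hsp68*, *Hsf* and co-chaperone list and the 6 constitutive *Hsc70* genes 0 passed as well. Over all genes tested 1.27% rose and 0.679% fell, so 0 calls in lists this short are no finding about them. The medians of these lists were 0.09, 0.04 and 0.02, against 0.01 for all genes. The ratios of these chaperones lay far apart. *Hsp27*, a small heat shock protein found in the nucleus, had the highest, with input of 23.8, 14.0 and 16.8 CPM in basal and 12468, 12524 and 12129 CPM in HS samples, and IP of 102, 93.5 and 84.6 CPM and 87472, 83237 and 90689 CPM. Its log2 IP/input was 2.10, 2.74 and 2.33 in basal and 2.81, 2.73 and 2.90 in HS samples, and overlapped between the groups (change 0.43, SE 0.13, adjusted p = 0.074). *Hsp26*, another small heat shock protein, was induced almost as strongly (9.03 in input) with ratios below 0, at -0.58, -0.22 and -0.21 in basal and -0.33, -0.25 and -0.27 in HS samples. *Hsp67Bc*, a small heat shock protein that cooperates with the co-chaperone encoded by *stv* in protein clearance, changed by -0.45 (adjusted p = 0.056), from -0.05, -0.40 and -0.68 to -0.75, -0.75 and -0.97.

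*Hsp83*, the fly Hsp90, had log2 IP/input of 0.51, 0.97 and 0.84 in basal and 0.97, 0.92 and 1.00 in HS samples, while its input rose by 4.65. *DnaJ-1*, an Hsp40 co-chaperone, had 0.45, 0.75 and 0.77 and then 0.59, 0.57 and 0.64, with input up by 5.70. In both the groups overlapped, with changes of 0.19 (adjusted p = 0.34) and -0.06 (adjusted p = 0.81). *Hsf* itself changed by -0.15 (adjusted p = 0.39). The heat-inducible noncoding RNA *lncRNA:Hsromega*, which organises nuclear stress bodies, had input 1.60 higher on the log2 scale and a ratio that changed by -0.17 (adjusted p = 0.22). Over all genes tested 1.27% rose and 0.679% fell. The unfolded protein response had a single called gene of 13, *Atf6*, a membrane-bound transcription factor of the endoplasmic reticulum. Its ratio rose from -0.89, -0.89 and -0.71 to -0.29, -0.30 and -0.22 (0.55, SE 0.11, adjusted p = 0.0081) while its input fell by 0.36. Features on the other strand, transposon insertions among them, overlap 19.8% of its exon length. Of 15 immediate early and JNK pathway genes 0 passed, with 13 changes above 0 and a median of 0.21. Of all 10450 genes tested 5490 had changes above 0.

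**Figure D4:**
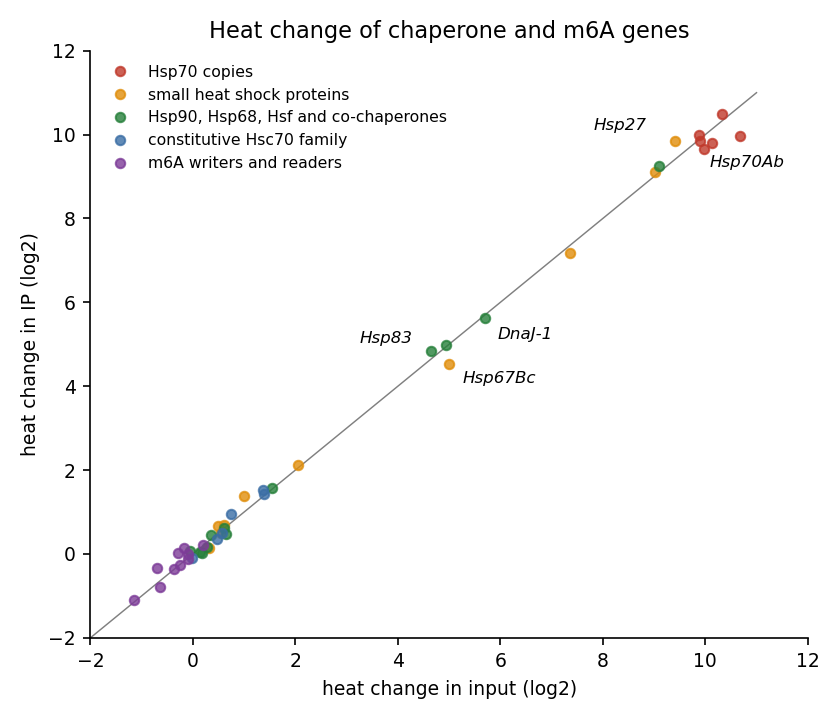
Heat change of input (horizontal) and of IP (vertical) on the log2 scale in control heads for the chaperone lists and the m6A writers and readers, with 1 point per gene and the line of equal change. The points lie close to the line from the m6A genes, at input changes between -1.14 and 0.19, to the *Hsp70* copies, between 9.88 and 10.68.

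Of the 10 m6A writers and readers, *fl(2)d* and *Ythdc1* rose, where 1.27% of all genes tested rose. *fl(2)d*, the WTAP homolog of the writer complex, is also a splicing regulator (chromosome 2R, 13819624 to 13824553, minus strand). Its input was 87.3, 90.6 and 92.7 CPM in basal and 70.6, 78.7 and 72.8 CPM in HS samples, and its IP 191, 241 and 230 CPM and 224, 233 and 225 CPM. Input was lower in every HS sample and IP was inside its basal range, and the ratio went from 1.13, 1.41 and 1.31 to 1.66, 1.57 and 1.63 (0.33, SE 0.080, adjusted p = 0.030). *Ythdc1*, the nuclear YTH reader (chromosome 3L, 3370451 to 3374170, minus strand), went from 1.52, 1.86 and 1.75 to 2.11, 1.99 and 2.11 (0.35, SE 0.083, adjusted p = 0.028). Both genes passed in 8 of 16 alternatives and kept the sign in all 16. Of the other 8, *Mettl3* had 0.39 (SE 0.25, adjusted p = 0.44) at input levels of 2.22 to 4.69 CPM, *Ythdf* 0.00, *Fmr1*, which binds RNA and reads m6A, 0.02, and *Mettl14* -0.15. Of the 15 genes named in the study's text, which include these *fl(2)d* and *Ythdc1*, 2 rose and 0 fell. Among the others *SK*, a calcium-activated potassium channel, had a change of 0.27 (adjusted p = 0.078) and *bru3*, a Bruno family translational regulator, 0.30 (adjusted p = 0.066). *para*, the sodium channel, had 0.25 (adjusted p = 0.18) and *RpL32*, a ribosomal protein, -0.15 (adjusted p = 0.30).

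Lists of neuronal genes had medians above that of all genes and few called members, where 1.27% of all genes tested rose. Of 13 neuronal RNA-binding proteins 3 rose and all 13 changes were above 0, with a median of 0.26. These were *bru2*, a Bruno family protein, *sm*, an hnRNP L homolog, and *mub*, a poly(rC)-binding protein. *bru2* had log2 IP/input of 0.53, 0.63 and 0.59 in basal and 0.94, 1.04 and 0.98 in HS samples (0.40, SE 0.088, adjusted p = 0.019). Its 3 HS values were well above its basal ones. Of 14 potassium channel genes *KCNQ* (0.36), *Shal* (0.35), the A-type channel, and *qvr* (0.34), a membrane-anchored regulator of Shaker, rose and the median was 0.22. *Shal* went from 0.36, 0.46 and 0.49 to 0.81, 0.78 and 0.76 while its input fell by 0.25. Of 23 neural adhesion molecules *fra*, the netrin receptor (0.44), and *Fas3*, a homophilic adhesion protein (0.35), rose, with 21 changes above 0. Of 10 nicotinic receptor subunits *nAChRalpha7* rose (0.33), of 10 circadian clock genes *Pdp1*, an activator of *Clk* (0.35), and of 13 EGFR pathway genes *sty*, an inhibitor of the pathway (0.41).

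Sodium and calcium channels (11 genes), synaptic vesicle release (18) and the axonal cytoskeleton (11) had 0 called genes and medians of 0.15, 0.13 and 0.02. Of all genes tested 1.27% rose and 0.679% fell. With the trend with exon length and GC content removed, the median above that of all genes was 0.04 for the RNA-binding proteins and 0.07 for the potassium channels, against 0.25 and 0.21 without. The 5 neuron markers had a median change of 0.19 with 0 called. Their summed level in input was 3004 to 3110 CPM in basal and 3252 to 3395 CPM in HS samples. The summed input of glia markers, at 2315 to 2392 CPM and 2524 to 2551 CPM, was also higher in every HS sample. So was that of muscle markers, at 6575 to 7911 CPM and 8054 to 10482 CPM. The sums of photoreceptor and fat body markers overlapped, but such sums mostly follow their most abundant genes. *Lsp2* alone had 1349 to 2849 CPM of the fat body sum of 2730 to 5128 CPM in basal input. The median input change of the 7 fat body markers was -1.52. The part of these differences in the medians of the neuronal lists was not tested. Of 24 phototransduction genes *inaC*, the eye protein kinase C, fell by 0.34 (adjusted p = 0.027), and the median was -0.00051.

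Lists of ribosomal proteins, aminoacyl-tRNA synthetases, proteasome subunits and mitochondrial genes had medians below 0, while the 9 translation factors had a median of 0.04 with 6 changes above 0. Of 83 cytosolic ribosomal protein genes tested 7 fell (8.43%, against 0.679% of all genes) and 0 rose, with 59 changes below 0 and a median of -0.09. Their basal median was -0.68. In the class of all genes with the lowest basal ratio in UAS-*dTrmt10A* heads, 2.51% fell and the median change was -0.15. A median below 0 is thus not particular to ribosomal proteins. *RpL15*, *RpL29*, *RpL39* and *RpL41* of the large subunit were among them. *RpL41*, among the shortest ribosomal proteins, went from -1.25, -1.32 and -1.32 to -1.92, -1.59 and -1.95, a fall of 0.52 (SE 0.086, adjusted p = 0.0019). Its input rose by 0.78, and the median input change of the 83 genes was 0.44. *RpL15* fell by 0.44 and *RpL39* by 0.44. Of 34 proteasome subunits *Prosbeta4* fell by 0.43 and *Prosbeta2* by 0.30, with a median of -0.11. Of 32 aminoacyl-tRNA synthetases *AlaRS* fell by 0.46, and 27 changes were below 0 with a median of -0.17. Mitochondrial ribosomal proteins (72 genes), nuclear oxidative phosphorylation (62) and V-ATPase (22) had 0 called genes and medians of -0.10, -0.07 and -0.05. The 16 mitochondrially encoded transcripts had a basal median of -4.20 and 0 called genes.

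Among the further lists, *Fer1HCH*, the heavy chain of secreted ferritin, was the called gene of 5 metallothioneins and ferritins tested (chromosome 3R, 30385573 to 30388178, minus strand). Its input was 746, 717 and 712 CPM in basal and 845, 834 and 816 CPM in HS samples, and its IP 759, 720 and 740 CPM and 1176, 1126 and 1196 CPM. IP and input were close to equal in basal heads, at a log2 ratio of 0.02, 0.01 and 0.06, and apart after HS, at 0.48, 0.43 and 0.55 (0.46, SE 0.075, adjusted p = 0.0019). Of 29 odorant-binding proteins *Obp56g* fell by 0.52, and *Obp56f* rose by 2.68 (SE 0.70, adjusted p = 0.045) at input levels of 0.345 to 1.17 CPM. Its IP was 0.356, 0.212 and 0.0491 CPM in basal samples, the last below the detection floor of that library (0.162 CPM), so the size of its rise is uncertain. Of 275 long noncoding RNAs 3 rose (1.09%), and of 226 antisense RNAs 1 rose (0.442%), where 1.27% of all genes rose. These counts are too small to set the shares apart. The median change was 0.12 in both lists, against 0.01 in all genes. The antisense RNA, *asRNA:CR42860*, is overlapped over 74.5% of its length by the muscle gene *sls* on the other strand, so its counts are uncertain. Of 14 antimicrobial peptides, 10 SR splicing factors, 9 translation factors, 36 cuticle proteins, 7 histones and 5 snoRNAs 0 passed. The lists of glia (6 genes), photoreceptor (4), fat body (7) and muscle (7) markers also had 0 called genes.

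The study listed genes whose m6A in basal conditions depends on dTrmt10A, in the 5'UTR (308 tested of 315) and in the 3'UTR (356 of 368). Of the first 27 rose and 0 fell upon heat in control heads (8.77%), with a median of 0.18, and of the second 30 rose and 0 fell (8.43%), with a median of 0.18, where 1.27% of all genes tested rose. The lists were chosen on libraries that include the basal control ones used here, so these counts are not independent evidence of a direction. *Eip93F*, an ecdysone-induced transcription factor on both lists, went from 1.24, 1.62 and 1.49 to 2.01, 1.99 and 2.10 (0.58, SE 0.085, adjusted p = 0.00085). The 3 HS values lay above the 3 basal ones. *olf186-F*, which encodes the calcium channel Orai, rose by 0.51, as did the neural adhesion gene *plum* (0.51).

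The same contrast in UAS-*dTrmt10A* heads, made of other libraries, had 1354 genes that rose (12.8%) and 661 that fell (6.24%) of 10588 tested. Of 10340 genes tested in both genotypes 7408 (71.6%) had the same sign, and across genes Pearson's r was 0.29 and Spearman's rho 0.46, where genes are not independent replicates. Of the 204 control calls 200 had the same sign in UAS-*dTrmt10A* heads, and 152 were called there in the same direction. These 152 are 74.5% of the control calls and 7.56% of the 2011 UAS-*dTrmt10A* calls that were tested in both. There were 0 genes called in opposite directions. *Octbeta2R* changed by 0.75, *CG8929* by 0.71, *Crg-1* by 1.05, *RNASEK* by -0.87 and *RpL29* by -0.64 there, all past the threshold. *fl(2)d* and *Ythdc1* changed by 0.51 each and *Fer1HCH* by 0.65. *Atf6* had 0.05 there and 0.55 in control heads, and the difference of -0.49 did not pass its own test (adjusted p = 0.68). *anne*, a gene of chromosome 4, had -0.01 and 0.41, and its difference of -0.41 did not pass either (adjusted p = 0.68).

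The difference in heat change between the genotypes was tested itself. With edgeR's quasi-likelihood test 0 of 10753 genes passed (0%), with 533 higher and 237 lower in UAS-*dTrmt10A* at an unadjusted p under 0.05, and 0 passed with DESeq2's Wald test. The larger number of calls in UAS-*dTrmt10A* heads is thus not shown to be a larger change. The number of calls in UAS-*dTrmt10A* heads also depended on single replicates, with 314 higher and 185 lower genes without basal replicate 1, 520 and 385 without basal replicate 3, 901 and 578 without basal replicate 2, and 1031 and 386 without HS replicate 3.

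**Figure D5:**
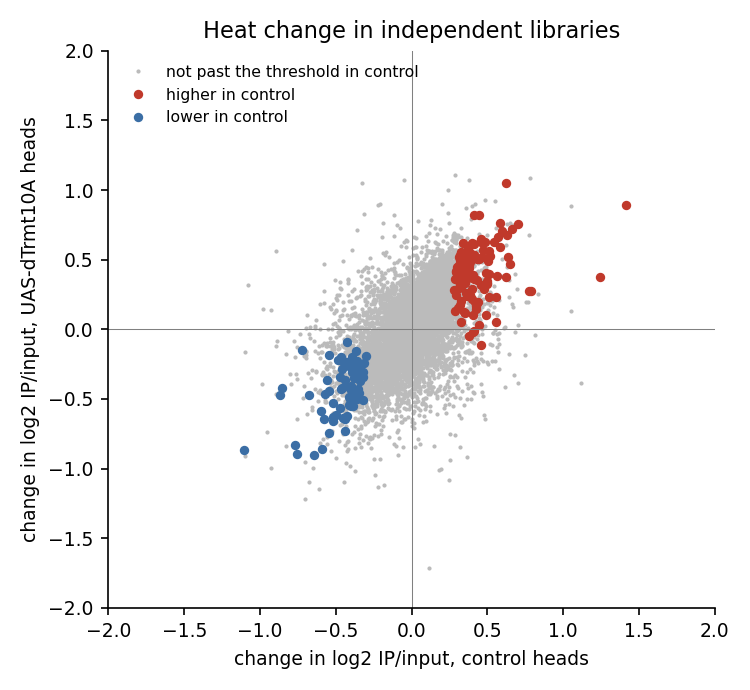
Heat change of log2 IP/input in control heads (horizontal) and in UAS-*dTrmt10A* heads (vertical) for genes tested in both whose log2 CPM averaged 1 or more. Red points are called genes that rose in control heads, blue points those that fell and grey points the rest, and axes end at a change of 2 in each direction. Of the 204 genes called in control heads, 200 have the same sign on both axes.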

How the data were processed

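m6A-IP and input libraries of control heads (basal and HS, 3 replicates each) were analysed beside the UAS-*dTrmt10A* libraries. Before deposit, the authors used TrimGalore for trimming, STAR 2.7.3a for alignment to dm6 and summarizeOverlaps for counts per gene on exons. The deposited values are raw counts for 17562 genes, of which 2231 had 0 counts in the 12 control libraries. Strand use in counting is not given in the sources used here. Columns of other genotypes entered only where named.

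Counts were fitted in edgeR 4.0.16 (R 4.3.3, limma 3.58.1) after filterByExpr (minimum count 10, total 15) and TMM scaling, with a term per RNA sample, IP, and IP by HS, and tested with the robust quasi-likelihood F-test and Benjamini-Hochberg adjustment over all genes (threshold 0.05). The fit has 4 residual degrees of freedom among samples, which are separate pools of heads. The test also shares variance over genes, so its p-values rest on more than the spread of a single gene between these samples. Each SE is the size of the log2 estimate divided by the square root of its F statistic, so it is not a separately estimated error. For log2 CPM the prior count was 2. A count of 3, the detection floor, corresponds to 0.119 to 0.185 CPM, and floors cover counting error only. Input and IP changes were fitted on 6 libraries each, and DESeq2 1.42.0 was an alternative. Lists used pandas 2.3.3 and figures matplotlib 3.10.9, under Python 3.11.15.

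IP and input of a replicate come from the same fragmented RNA by the extract protocol, and their residuals correlated by 0.19 to 0.38 in all 6 pairs. Basal and HS replicates of a number did not (-0.15 to 0.10).

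Genes were named by rule: up to 12 per direction with the largest called change, log2 CPM averaging 1 or more and separate basal and HS values, every member of the chaperone, m6A and study-named lists, and of other lists up to 4 called members and the most expressed one. The members and lists were chosen with earlier results of these data known. Gene positions, exon, UTR and strand overlap values are from the Ensembl annotation of dm6, GC content and pentamers from the RefSeq genome of the same build, and 16847 genes matched by symbol, 660 by an older symbol and 55 had none. The fit was tested on simulated data. Alternatives were no or another replicate block, other scaling, filters and tools, removal of length and GC trends, all 24 libraries in a fit, and each replicate left out.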

Additional observations from a re-analysis of the deposited data

How the results depend on the processing

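All 204 genes kept their direction under each alternative in which they were fitted, and of 863 values of 54 called named genes under the alternatives 0 changed sign and 553 stayed past the threshold. These genes were called on the same data and had separate basal and HS values, so kept directions are no further evidence. Of 1422 values of 89 named genes that were not called, 131 had the other sign and 54 passed, 0 of them with the other sign. The number of calls was not stable. With 133 higher and 71 lower genes as reported, there were 0 and 0 without the replicate block that pairs IP with input (478 and 401 at an unadjusted p under 0.05). A replicate block across basal and HS gave 94 higher genes, total library size 19 and 347, mitochondrial transcripts left out 47 and 135, no filter 220 and 221, at least 10 counts in every library 202 higher, removal of exon length and GC trends 57 higher, and all 24 libraries in a fit 63 higher. Leaving out single replicates gave 1 to 975 higher and 0 to 323 lower genes. In UAS-*dTrmt10A* heads the counts were 3 and 3 without the replicate block, and 314 to 1396 and 185 to 738 without single replicates. The difference between genotypes had 2 higher and 3 lower genes without the filter, and 0 without single replicates.

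For summed *Hsp70*, the basal ratio passed its test at 0.16 with DESeq2's Wald test and 0.13 without the filter, and ranged from 0.016 to 0.26 without single replicates. The HS ratio was -0.22 with total library size, past the threshold in the other direction, and 0.022 with mitochondrial transcripts left out. With exon length and GC trends removed, medians minus that of all genes moved to -0.017 and 0.011 in the shortest and longest exon length classes. They moved to -0.034 in mitochondrial ribosomal proteins, 0.043 in neuronal RNA-binding proteins, 0.069 in potassium channels and 0.024 in clock genes. That alternative takes out the trends with length and GC and whatever goes along with them, and the part of each was not tested. For the other changed values the cause was not tested either. Among low counts, *lncRNA:CR31044* and *CG5883* passed the threshold in 5 and 11 of 16 alternatives.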

Other observations

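Families looked up after their values were seen add members to these groups. Of 53 genes tested of the Beat, Side, Dpr and DIP families, immunoglobulin domain surface proteins through which neurons recognise partners, 10 rose and 0 fell upon heat (edgeR's quasi-likelihood test, adjusted p under 0.05), 52 changes were above 0 and the median was 0.26, where 1.27% of all 10450 genes tested rose and 5490 had changes above 0. The 10 were *beat-IIa*, *beat-IIIb*, *beat-IIIc*, *beat-Vc*, *dpr2*, *dpr7*, *dpr11*, *dpr13*, *side-V* and *side-VI*, with changes from 0.32 in *dpr7* to 0.56 in *dpr2*. In UAS-*dTrmt10A* heads 24 of the family rose and 0 fell, with a median of 0.30. Of all genes tested in those heads 12.8% rose and 6.24% fell. Of 17 receptors for octopamine, tyramine, dopamine and serotonin, *Octbeta2R* (0.70), *Dop2R* (0.44), *Octbeta3R* (0.35) and *DopEcR* (0.34) rose and 16 changes were above 0. In UAS-*dTrmt10A* heads 9 of the 17 rose, where 12.8% of all genes tested rose.

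Of 75 cytochrome P450 genes, which oxidise toxins and hormones, *Cyp311a1* (-0.46), *Cyp4e3* (-0.46) and *Cyp28d1* (-0.40) fell and 0 rose, 53 changes were below 0 and the median was -0.10, where 0.679% of all genes tested fell and 4960 had changes below 0. In UAS-*dTrmt10A* heads 22 fell and 1 rose, where 6.24% of all genes tested fell and 12.8% rose. Of 12 Bomanins 2 fell and 10 changes were below 0. Beyond the ribosome, *eEF5*, a translation factor that carries hypusine, fell by 0.55 and *bai*, a p24 cargo receptor of the secretory pathway, by 0.54. *Nrx-IV*, a septate junction protein, fell by 0.41, against the direction of most adhesion genes. The transcription factors *Mef2* (0.34) and *fru* (0.33) rose. These genes were chosen after their values were seen, so their counts are descriptions.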
